A study of Mus musculus with 30 samples.

Results

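F4/80 (gene Adgre1), the lysosomal glycoprotein CD68 (Cd68), the receptor tyrosine kinases MerTK (Mertk) and Axl (Axl), their ligand Gas6 (Gas6) and the scavenger receptor stabilin-1 (Stab1) were followed across 10 groups of mouse CD11b+ cells. The 6 genes were taken by symbol from the platform's probe annotation, each through the probe set with 1 symbol and the highest mean over all 30 arrays, out of 18194 genes chosen in the same way. All 6 were found, 4 of them with 1 probe set and 2, Axl and Gas6, with 2. In the RefSeq annotation of GRCm38.p6, Adgre1 lies at chr17:57358581-57483529, Cd68 at chr11:69664213-69666170, Mertk at chr2:128698915-128803162, Axl at chr7:25756500-25788924, Gas6 at chr8:13465374-13494535 and Stab1 at chr14:31139017-31168651.

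F4/80 is an adhesion receptor of the EGF-TM7 family and the antigen most used to mark mouse macrophages; eosinophils carry it too. CD68 sits mainly in late endosomes and lysosomes of phagocytes. Efferocytosis is the engulfment of dying cells. MerTK and Axl, with Tyro3, form the TAM family of receptors, which bind phosphatidylserine on a dying cell through the bridging proteins Gas6 and protein S (Pros1), and signalling through them dampens inflammatory responses. Stabilin-1 binds phosphatidylserine directly, clears modified lipoproteins and matrix fragments, and is known from sinusoidal endothelium and from alternatively activated and tumor-associated macrophages. In the spleen, red pulp macrophages engulf old erythrocytes.

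RNA came from CD11b+ cells enriched with magnetic beads, so every group is a mixture of CD11b+ cell types, and each group held 3 arrays. Healthy spleens of BALB/c and of C57BL/6 mice were the reference for tumor-bearing mice. The BALB/c mice carried C26-GM, labelled as a GM-CSF tumor, of which spleen and tumor infiltrate were taken, or 4T1, a mammary carcinoma, of which the infiltrate was taken. The C57BL/6 mice carried EL-4, a thymoma, or MCA203, a fibrosarcoma, both sampled as infiltrates. Fresh BALB/c bone marrow was the reference for BALB/c marrow kept for 4 days with GM-CSF+IL-6 or with GM-CSF+G-CSF. For the healthy C57BL/6 spleens the title and strain say C57BL/6 while the source and description say BALB/c, and the title was followed. The labels give no age, and they do not say whether the 3 samples of a group were separate animals. P-values therefore measure the spread between samples within groups, pooled over all 10 groups for each gene, which may be technical. Infiltrates have no healthy counterpart tissue here, so a difference between an infiltrate and spleen cannot be told apart from one between organs, and each tumor line was grown in 1 strain only.

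The promoters of the 4 genes listed next were chosen by calls against healthy spleen, made at adjusted p below 0.05 and at least 2-fold. Gas6 and Stab1 were both called higher in 3 of the 4 infiltrates, Mertk was called lower in 3 of them, and Cd68 was called in none. Cd68 in EL-4 and MCA203 and Mertk in EL-4 also differed at adjusted p below 0.05, but by less than 2-fold. RefSeq's promoter table of GRCm38.p6 held 5 of the 6 genes; Adgre1 was not among them. Each stretch runs 5′ to 3′ on the gene's strand and ends before the annotated gene: Cd68 at chr11:69666171-69666420 on the minus strand, Mertk at chr2:128698665-128698914 on the plus strand, Gas6 at chr8:13494536-13494785 on the minus strand and Stab1 at chr14:31168652-31168891 on the minus strand. Capitals mark matches, on either strand, to the core bound by PU.1 (GAGGAA), AP-1 (TGANTCA) or the GC box of SP factors (GGGCGG).
Cd68: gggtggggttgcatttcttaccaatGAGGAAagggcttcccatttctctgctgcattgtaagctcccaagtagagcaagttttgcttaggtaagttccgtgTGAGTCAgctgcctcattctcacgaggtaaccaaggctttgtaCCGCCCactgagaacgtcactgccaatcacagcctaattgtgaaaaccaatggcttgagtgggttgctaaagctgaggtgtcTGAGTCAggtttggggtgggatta
Mertk: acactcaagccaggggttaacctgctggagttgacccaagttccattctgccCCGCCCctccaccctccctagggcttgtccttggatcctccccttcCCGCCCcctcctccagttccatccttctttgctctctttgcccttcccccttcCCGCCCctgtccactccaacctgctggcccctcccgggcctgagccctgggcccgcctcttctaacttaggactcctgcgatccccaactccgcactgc
Gas6: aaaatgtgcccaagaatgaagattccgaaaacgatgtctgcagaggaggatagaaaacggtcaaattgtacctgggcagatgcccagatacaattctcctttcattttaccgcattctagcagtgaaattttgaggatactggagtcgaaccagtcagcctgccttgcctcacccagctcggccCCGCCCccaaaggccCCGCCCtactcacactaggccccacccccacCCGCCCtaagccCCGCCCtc
Stab1: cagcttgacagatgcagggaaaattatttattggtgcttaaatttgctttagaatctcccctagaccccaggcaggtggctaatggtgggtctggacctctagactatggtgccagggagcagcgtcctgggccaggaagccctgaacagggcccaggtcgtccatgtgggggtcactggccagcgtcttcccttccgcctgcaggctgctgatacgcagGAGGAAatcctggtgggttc

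The 250 bases before the start of Cd68 held 1 PU.1 core, 2 AP-1 sequences and 1 GC box. Mertk had 3 GC boxes there, Gas6 had 4, and Stab1 had 1 PU.1 core. The window of Axl, which reaches into the annotated gene and is not printed, had 1 PU.1 core and 1 GC box. Over 32851 mouse promoters of that length, 23.3% held the PU.1 core, 6.75% the AP-1 sequence and 32.7% the GC box. The MAF factor sequence TGCTGAC (3.81% of promoters) and the E-box CACGTG of the lysosomal CLEAR element (6.02%) matched in none of the 5 windows. These matches describe letters in the windows only.

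The values are log2 levels from RMA, with array medians between 4.85 and 5.15 over all probe sets. Itgam, which encodes CD11b, lay between the 90.8 and the 98.9 percentile of its array on all 30 arrays. Several sets of arrays stood apart. The 6 C26-GM arrays had Xist at 5.15 to 6.47 and the Y-linked Eif2s3y at 8.11 to 8.95, against 10.06 to 11.12 and 2.16 to 2.70 on the other 24 arrays, so the C26-GM tumor and these sex-linked levels cannot be told apart. On replicate 3 of the C26-GM tumor group the 3′ probe set of actin exceeded the 5′ one by 2.42, against 0.01 to 0.68 on the other 29 arrays. Of the culture arrays, replicates 1 and 2 of GM-CSF+IL-6 and replicates 1 and 3 of GM-CSF+G-CSF had a narrower spread of values (SD 1.96 to 1.98) than the remaining 2 (2.23 to 2.26). Results that rest on replicate 3 of the C26-GM groups, or on either kind of culture array, are given with and without them.

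**Figure D1:**
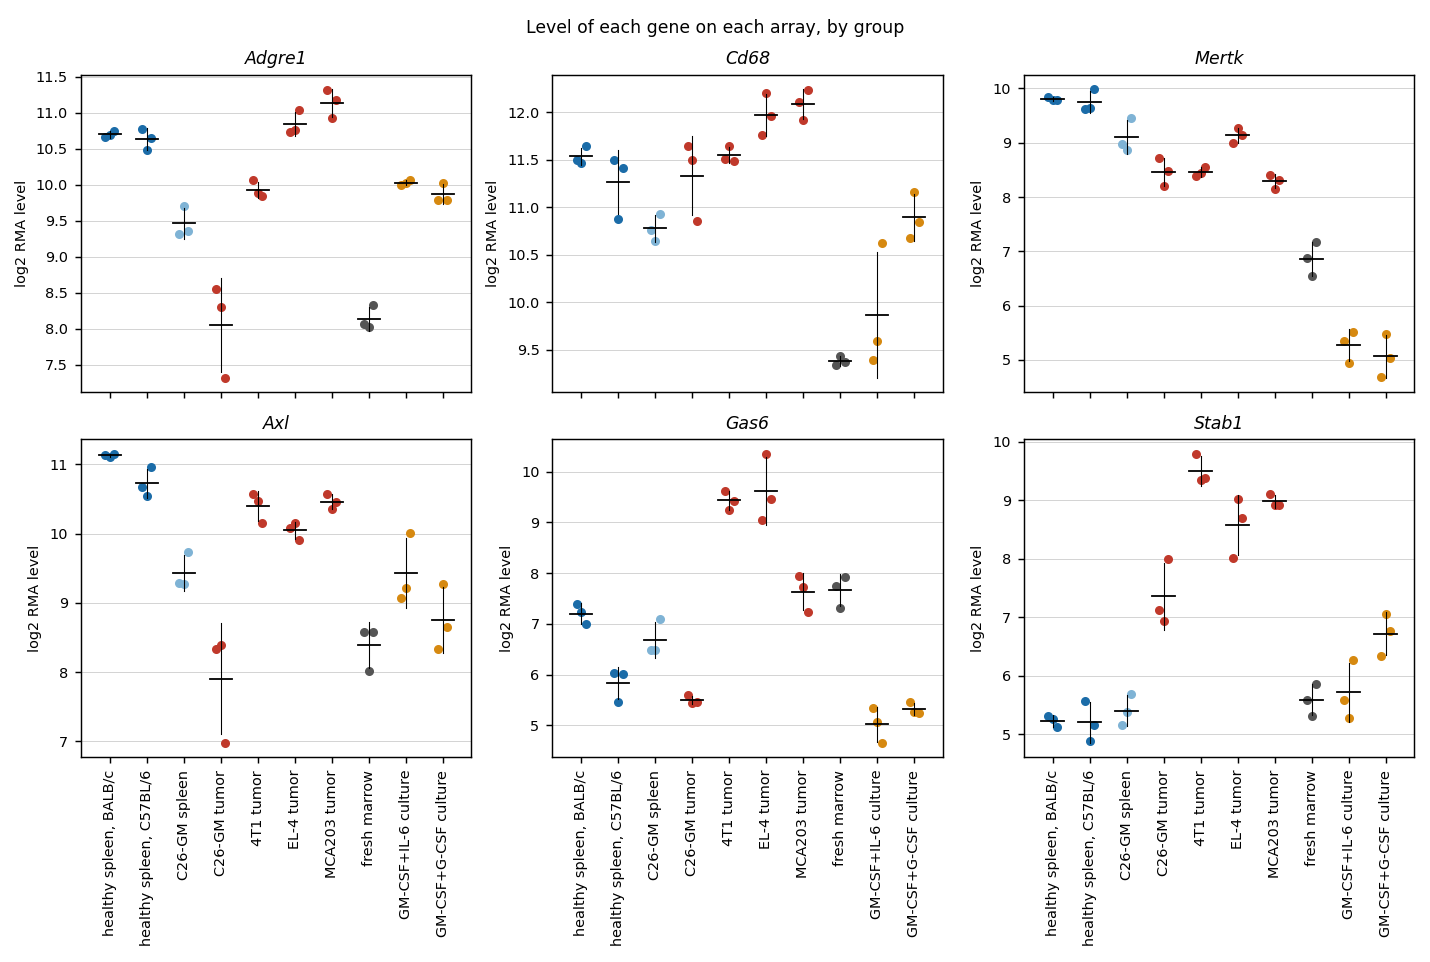
Log2 RMA level (vertical axis) of each gene on each of the 30 arrays by group (horizontal axis); points are arrays, horizontal bars are group means and vertical lines are SDs (n = 3). Stab1 lies between 6.93 and 9.79 in the 4 infiltrates and between 4.88 and 5.68 in the 3 spleen groups, while Mertk is highest in healthy spleen and lowest in the 2 cultures.

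Adgre1 was high in healthy spleen. Its log2 level was 10.66, 10.69 and 10.75 on the BALB/c arrays and 10.78, 10.48 and 10.65 on the C57BL/6 arrays. The EL-4 infiltrate read 10.73, 10.76 and 11.04, and the MCA203 infiltrate 11.31, 10.93 and 11.17. The EL-4 arrays lay within or above the range of healthy C57BL/6 spleen, and the MCA203 arrays lay above it. In the 4T1 infiltrate the level was 10.06, 9.89 and 9.85, in the C26-GM spleen 9.32, 9.71 and 9.36, and in the C26-GM infiltrate 8.55, 8.31 and 7.32. These groups lay below every healthy BALB/c array. Fresh marrow had 8.07, 8.02 and 8.33, GM-CSF+IL-6 cultures 10, 10.02 and 10.07, and GM-CSF+G-CSF cultures 9.79, 10.03 and 9.79. The group means therefore ran from 11.14 ± 0.19 (SD, n = 3) in the MCA203 infiltrate to 8.06 ± 0.65 in the C26-GM infiltrate. Along that order only 2 neighbouring pairs differed at adjusted p below 0.05: healthy C57BL/6 spleen over the GM-CSF+IL-6 culture, and the C26-GM spleen over fresh marrow.

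Cd68 varied least of the 6 genes between groups. The healthy BALB/c spleens read 11.50, 11.46 and 11.64 and the C57BL/6 spleens 11.50, 10.88 and 11.41. The infiltrates were at 11.64, 11.50 and 10.86 (C26-GM), 11.51, 11.64 and 11.49 (4T1), 11.76, 12.20 and 11.96 (EL-4) and 12.11, 11.92 and 12.23 (MCA203). EL-4 and MCA203 lay above all healthy C57BL/6 arrays, whereas C26-GM and 4T1 overlapped healthy BALB/c spleen. The C26-GM spleen was at 10.76, 10.65 and 10.93, below healthy BALB/c spleen. The lowest means were in fresh marrow, with 9.34, 9.44 and 9.37, and after GM-CSF+IL-6, with 9.39, 9.59 and 10.62. The GM-CSF+G-CSF cultures read 10.68, 11.16 and 10.84, with a mean just above that of the C26-GM spleen. The mean levels spanned 2.70 log2 units, from 12.09 ± 0.16 in MCA203 to 9.38 ± 0.05 in fresh marrow, and 1 pair of neighbours in the order differed, the C26-GM spleen over the GM-CSF+IL-6 culture.

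Mertk, the receptor through which macrophages take up apoptotic cells at steady state, had its highest levels in healthy spleen, 9.85, 9.78 and 9.79 in BALB/c and 9.62, 9.64 and 9.99 in C57BL/6 mice. The C26-GM spleen read 8.97, 8.87 and 9.46. The infiltrates read 8.72, 8.20 and 8.48 (C26-GM), 8.38, 8.45 and 8.55 (4T1), 9.0, 9.28 and 9.14 (EL-4) and 8.41, 8.15 and 8.31 (MCA203). Every array of a tumor-bearing mouse was below every healthy spleen array of either strain. Fresh marrow had 6.87, 6.54 and 7.17, and the cultures 5.34, 4.95 and 5.52 with IL-6 and 4.69, 5.48 and 5.03 with G-CSF. The range of group means, 4.74 log2 units, was the widest of the 6 genes and stood at the 98.2 percentile of all genes. Of 45 pairs of groups, 39 differed for Mertk at adjusted p below 0.05, where over all pairs together 32.3% of genes did; the same count was 33 for Adgre1, 28 for Cd68, 29 for Axl, 35 for Gas6 and 31 for Stab1.

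Axl, the TAM receptor that is induced by inflammatory stimuli in many phagocytes, was also highest in healthy spleen: 11.14, 11.11 and 11.15 in BALB/c and 10.68, 10.54 and 10.96 in C57BL/6 mice. The C26-GM infiltrate held the lowest mean, with arrays at 8.34, 8.39 and 6.98, and the C26-GM spleen was at 9.29, 9.28 and 9.73. Both C26-GM groups were below all healthy BALB/c arrays. The remaining infiltrates stayed closer to spleen, at 10.57, 10.47 and 10.16 (4T1), 10.08, 10.15 and 9.91 (EL-4) and 10.57, 10.36 and 10.46 (MCA203). Marrow read 8.58, 8.01 and 8.58 when fresh, 9.07, 9.21 and 10.01 after GM-CSF+IL-6, and 8.34, 9.27 and 8.65 after GM-CSF+G-CSF. The order fell from 11.13 ± 0.02 to 7.90 ± 0.80 in small steps, and no 2 neighbours in it differed at adjusted p below 0.05.

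Gas6, the ligand of MerTK and Axl, lay at unlike levels in the infiltrates, although the 4T1 and EL-4 arrays overlapped. It read 9.62, 9.25 and 9.43 in 4T1, 9.04, 10.35 and 9.46 in EL-4, 7.95, 7.72 and 7.24 in MCA203 and 5.60, 5.45 and 5.47 in C26-GM. The 4T1 and EL-4 arrays were above all the others of the series. Healthy BALB/c spleen was at 7.39, 7.23 and 6.99, healthy C57BL/6 spleen at 6.03, 5.47 and 6.01, and the C26-GM spleen at 6.49, 6.48 and 7.09. The strains did not overlap in healthy spleen. Fresh marrow had 7.75, 7.32 and 7.93, but the cultures had 5.34, 5.07 and 4.66 with IL-6 and 5.47, 5.26 and 5.24 with G-CSF. From 9.62 ± 0.67 in EL-4 to 5.02 ± 0.34 in the GM-CSF+IL-6 culture, neighbours differed in 2 places, 4T1 over fresh marrow and the C26-GM spleen over healthy C57BL/6 spleen.

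Stab1 was at the low end in spleen, with 5.32, 5.26 and 5.12 in healthy BALB/c, 5.57, 4.88 and 5.16 in healthy C57BL/6 and 5.15, 5.38 and 5.68 in C26-GM mice. All 4 infiltrates were above every spleen array: 7.13, 6.93 and 8.0 in C26-GM, 9.79, 9.34 and 9.37 in 4T1, 8.01, 9.02 and 8.69 in EL-4 and 9.10, 8.91 and 8.92 in MCA203. Marrow had 5.59, 5.32 and 5.85 when fresh, 5.59, 5.28 and 6.27 after GM-CSF+IL-6, and 6.33, 7.06 and 6.76 after GM-CSF+G-CSF. Among the 4T1, MCA203 and EL-4 means (9.50 ± 0.25, 8.98 ± 0.11 and 8.57 ± 0.52), no neighbours in the order differed at adjusted p below 0.05. EL-4 exceeded the next group, the C26-GM infiltrate (7.35 ± 0.57), by 1.22 at adjusted p below 0.05, and no later pair of neighbours differed at that level.

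The first question was how these genes in tumor-bearing mice compared with CD11b+ cells of healthy spleen. Stab1 rose in all 4 infiltrates, Mertk fell in 3, and Gas6 rose in 3 and fell in C26-GM. Differences were tested with limma, and a gene was called at a Benjamini-Hochberg adjusted p below 0.05 over all 18194 genes and at least a 2-fold difference. In the C26-GM infiltrate 5 of the 6 genes were called, where 11.4% of all genes were. In 4T1 the count was 3 of 6 (all genes 12.3%), in EL-4 it was 2 of 6 (10.8%) and in MCA203 3 of 6 (10.4%). In the C26-GM spleen 2 of 6 were called (6.14%). Standard errors were the same in every 2-group comparison, 0.20 for Adgre1 and Mertk, 0.23 for Cd68, 0.26 for Gas6 and 0.28 for Axl and Stab1. The spread behind them was pooled over all 10 groups, whose SDs were unlike. For Axl the SD was 0.80 in the C26-GM infiltrate and 0.02 in healthy BALB/c spleen, and for Adgre1 0.65 and 0.05. For these 2 genes the pooled error is smaller than the C26-GM infiltrate's own spread would give. Comparisons within a strain share the same 3 healthy spleens.

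Stab1 rose by 4.27 on the log2 scale in 4T1 (19.2-fold, adjusted p = 3.07e-12), 3.78 in MCA203 (13.7-fold, adjusted p = 3.68e-11), 3.37 in EL-4 (10.4-fold, adjusted p = 3.97e-10) and 2.12 in C26-GM (4.35-fold, adjusted p = 1.03e-06). Gas6 rose by 3.78 in EL-4 (13.7-fold, adjusted p = 1.22e-11), 2.23 in 4T1 (4.70-fold, adjusted p = 1.13e-07) and 1.80 in MCA203 (3.47-fold, adjusted p = 4.73e-06), and the C26-GM infiltrate differed by -1.70 (3.24-fold lower, adjusted p = 9.44e-06). The ligand and the scavenger receptor were thus both higher in 4T1, EL-4 and MCA203, and moved apart in C26-GM. The second probe set of Gas6 was low on all arrays (3.65 to 5.20), and on it the differences were 0.07 in 4T1, 0.16 in EL-4, 0.12 in MCA203 and 0.15 in C26-GM, none of them called.

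Among the receptors, Mertk differed by -1.46 in MCA203 (adjusted p = 2.23e-06), -1.35 in 4T1 (5.78e-06) and -1.34 in C26-GM (6.52e-06), each more than 2-fold lower. In EL-4 its difference was -0.61 (adjusted p = 0.0231), short of 2-fold. Among the infiltrates Axl fell in C26-GM only, by 3.23 on the log2 scale (9.39-fold, adjusted p = 1.05e-09), with -0.73 in 4T1 (0.0623), -0.68 in EL-4 (0.0860) and -0.26 in MCA203 (0.561, 95% interval -0.85 to 0.33). The second probe set of Axl read 2.19 to 3.18 throughout, and on it the C26-GM infiltrate differed by -0.31, not called. Adgre1 was likewise called only there, at -2.64 (6.25-fold lower, adjusted p = 6.99e-11), -0.77 in 4T1 (0.00481), 0.21 in EL-4 (0.551) and 0.50 in MCA203 (0.0735). Cd68 was called in no infiltrate: -0.20 in C26-GM (95% interval -0.68 to 0.28), 0.02 in 4T1 (-0.46 to 0.49), 0.71 in EL-4 (adjusted p = 0.0247) and 0.82 in MCA203 (0.00967). Without replicate 3 of the C26-GM groups the C26-GM infiltrate differed from spleen by -2.77 for Axl, -2.27 for Adgre1, -1.68 for Gas6, -1.35 for Mertk, 1.80 for Stab1 and 0.03 for Cd68, and the same 5 genes were called.

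**Figure D2:**
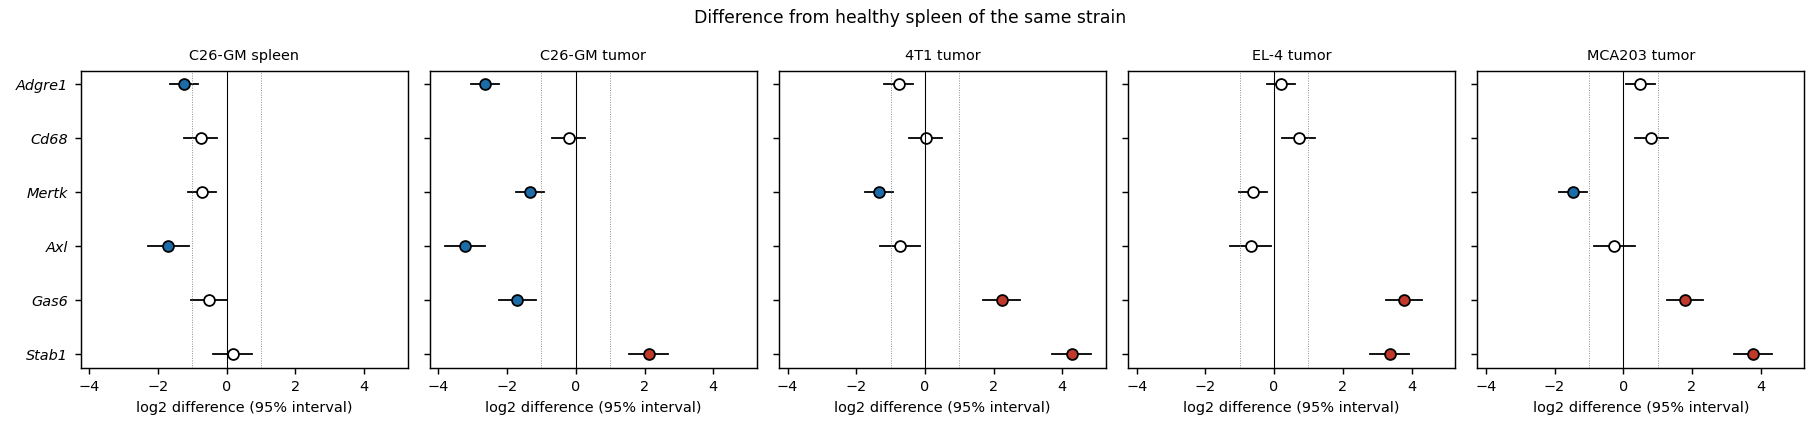
Log2 difference of each gene (rows) from healthy spleen of the same strain, with its 95% interval, in the C26-GM spleen and the 4 infiltrates (panels); filled points passed adjusted p below 0.05 and 2-fold, open points did not, and dotted lines mark 2-fold. Stab1 lies right of the dotted line in all 4 infiltrates, and Axl and Adgre1 lie left of it in the C26-GM panels only.

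In the C26-GM spleen, the only tumor-bearing spleen, Axl differed from healthy BALB/c spleen by -1.70 (3.25-fold lower, adjusted p = 9.00e-05) and Adgre1 by -1.24 (2.36-fold lower, adjusted p = 6.59e-05). Cd68 (-0.75, adjusted p = 0.0279) and Mertk (-0.71, 0.0144) stayed under 2-fold, and Gas6 (-0.51, 0.210) and Stab1 (0.17, 0.762) did not pass. Without replicate 3 the values were -1.85 for Axl, -1.18 for Adgre1, -0.83 for Cd68, -0.89 for Mertk, -0.72 for Gas6 and 0.04 for Stab1, with the same 2 genes called. The C26-GM infiltrate was also compared with the C26-GM spleen; the labels do not say whether both came from the same mice. There 4 of the 6 genes were called against 6.16% of all genes. In the infiltrate Stab1 was higher by 1.95 (adjusted p = 1.04e-05), while Axl differed by -1.53 (3.23e-04), Adgre1 by -1.41 (1.16e-05) and Gas6 by -1.18 (0.00169). Without replicate 3 of both C26-GM groups, Axl was at -0.92 (adjusted p = 0.0247) and Gas6 at -0.96 (0.0453), each short of 2-fold, and 2 of the 6 genes were called. Mertk (-0.64, adjusted p = 0.0297) and Cd68 (0.55, 0.127) were not called. Stab1 was at 1.76 and Adgre1 at -1.09 without those arrays.

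Infiltrates of the same strain were then compared directly. The 4T1 infiltrate differed from the C26-GM infiltrate in 4 of the 6 genes (all genes 12.9%), and was the higher in each: Gas6 by 3.93 (15.2-fold, adjusted p = 8.84e-12), Axl by 2.50 (5.66-fold, 1.43e-07), Stab1 by 2.15 (4.43-fold, 9.94e-07) and Adgre1 by 1.88 (3.67-fold, 5.42e-08). Mertk did not differ detectably (0.00, 95% interval -0.41 to 0.40), nor did Cd68 (0.22, -0.26 to 0.70). Without replicate 3 of the C26-GM groups Gas6 was at 3.91, Axl at 2.04, Stab1 at 2.47 and Adgre1 at 1.51, all still called. Between EL-4 and MCA203 only Gas6 was called, 1 of 6 against 5.28% of all genes, higher in EL-4 by 1.98 (3.95-fold, adjusted p = 3.39e-06). Mertk was 0.85 higher in EL-4 (adjusted p = 0.00375), and the 95% intervals of Adgre1 (-0.71 to 0.12), Cd68 (-0.59 to 0.37), Axl (-1.01 to 0.17) and Stab1 (-0.97 to 0.17) stayed within about 1 log2 unit of 0.

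The mean difference from healthy spleen over the 2 C57BL/6 infiltrates was set against that over the 2 BALB/c infiltrates. The C57BL/6 mean was higher for Gas6 by 2.52 ± 0.31 (SE, adjusted p = 2.35e-06), for Adgre1 by 2.06 ± 0.25 (1.30e-06) and for Axl by 1.51 ± 0.35 (0.00517), that is 3 of 6 genes called where 4.93% of all genes were called. Cd68 (0.86, adjusted p = 0.0666), Mertk (0.31, 0.630) and Stab1 (0.38, 0.709) did not pass. Without replicate 3 of the C26-GM groups it was 2.51 for Gas6, 1.87 for Adgre1 and 1.28 for Axl. The sign is that of the mean over both tumors: for Adgre1 the single differences were 0.21 and 0.50 in C57BL/6 against -2.64 and -0.77 in BALB/c mice, for Axl -0.68 and -0.26 against -3.23 and -0.73, and for Gas6 3.78 and 1.80 against -1.70 and 2.23. Strain and tumor line cannot be told apart in this difference. In healthy spleen the strains differed in 1 of the 6 genes (all genes 1.40%), Gas6, at -1.36 ± 0.26 (SE) in C57BL/6 relative to BALB/c (2.57-fold lower, adjusted p = 0.00158).

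Markers of other cells moved with these results. Markers counted as higher or lower are called genes. In bulk RNA, fewer cells of a type and less RNA per cell cannot be told apart. Of 7 red pulp macrophage markers (Spic, Vcam1, Cd5l and others), 7 fell in C26-GM and MCA203 infiltrates, 6 in 4T1, 5 in EL-4 and 4 in the C26-GM spleen. Their summed level (log2 of the sum) was 14.39 to 14.44 on healthy BALB/c arrays and 14.23 to 14.36 on C57BL/6 arrays, 13.12 to 13.36 in the C26-GM spleen, and 10.35 to 11.05 (C26-GM), 11.38 to 11.81 (4T1), 12.19 to 12.93 (EL-4) and 10.74 to 11.02 (MCA203) in infiltrates. The part of these cells in the Mertk and Axl differences was not tested.

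Neutrophil markers moved too. Of 11, all were lower in MCA203, 10 in EL-4, 7 in 4T1 and 5 in the C26-GM infiltrate, where 1 was higher; their sum was 10.71 to 11.22, 11.12 to 11.94, 14.62 to 15.06 and 15.47 to 15.81 in that order, against 15.83 to 16.02 in healthy C57BL/6 and 15.81 to 15.88 in BALB/c spleen. In the C26-GM spleen 3 were higher (15.93 to 16.73). Of 6 eosinophil markers, 5 were lower and 1 higher in the C26-GM infiltrate, 4 lower and 1 higher in the C26-GM spleen and in 4T1, 3 lower and 1 higher in EL-4, and 4 lower in MCA203. Eosinophil sums were 9.86 to 11.61 in the C26-GM infiltrate and 10.42 to 11.46 in the C26-GM spleen, overlapping the 10.28 to 10.92 of healthy BALB/c spleen. The 1 higher marker, Rnase2a, made up most of both C26-GM sums. It was at 10.65 in the infiltrate and 10.92 in the C26-GM spleen, against 3.98 in healthy BALB/c spleen. In the same order Prg2 was at 2.94 and 3.66 against 8.77, and Ccr3 at 4.51 and 6.45 against 9.68. T cell markers were higher for 6 of 9 in EL-4 and 5 of 9 in MCA203 and lower for 4 in C26-GM and 4T1 infiltrates, and NK cell markers were higher for 4 of 7 in EL-4, where 1 was lower, and 3 in MCA203, and lower for 6 in the other infiltrates. Dendritic cell markers were lower for 6 of 8 in C26-GM and in MCA203, where 1 was higher, 7 in 4T1 and 5 in EL-4. The sum of 7 B cell markers was 6.90 to 7.48 in the C26-GM and 7.17 to 7.66 in the 4T1 infiltrate. It was 10.52 to 11.05 in EL-4, 8.64 to 8.77 in MCA203 and 9.24 to 10.23 in the C26-GM spleen. Healthy spleen had 12.14 to 12.38 in BALB/c and 12.12 to 12.67 in C57BL/6 mice. In the C26-GM spleen the NK cell sum was 7.35 to 7.74, against 10.92 to 11.41 in healthy BALB/c spleen. The dendritic cell sum there was 11.09 to 11.42 against 12.15 to 12.51. The part of any of these cells in the differences of the 6 genes was not tested.

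Of 10 macrophage markers, none was called lower and 3, 5 and 5 were called higher in 4T1, EL-4 and MCA203. Their sums were 15.99 to 16.10, 15.83 to 16.02 and 15.83 to 16.01 in that order. In C26-GM 1 was called higher and 4 lower (15.04 to 15.26). Healthy spleen had 15.50 to 15.52 in BALB/c and 15.30 to 15.50 in C57BL/6 mice. Differences under 2-fold went both ways, such as Csf1r at -0.78 in EL-4 and Lgals3 at 0.53 in MCA203. Fibroblast markers, 10 collagen and other matrix genes and receptors, were higher for 7, 7, 6 and 3 members in 4T1, EL-4, MCA203 and C26-GM. Among them Postn was lower, by call, in C26-GM (-4.49) and in 4T1 (-1.01). The fibroblast sum was 13.22 to 13.41 in 4T1 and 11.67 to 12.59 in EL-4, 10.75 to 11.90 in MCA203 and 11.33 to 12.37 in C26-GM, against 11.45 to 12.05 and 10.39 to 11.27 in healthy BALB/c and C57BL/6 spleen. Fn1 held most of it in 4T1, C26-GM and healthy BALB/c spleen, with mean levels of 12.87, 11.45 and 11.29. Epithelial markers, 8 keratins and junction genes, were higher for 7 in 4T1 and 7 in EL-4, with sums of 11.80 to 12.46 and 9.54 to 13.41 against 7.91 to 8.22 in healthy spleen. In C26-GM, where Gas6 was lower than in spleen, 1 was higher and the sum was 9.90 to 10.37, and in MCA203 3 were higher and the sum was 9.70 to 10.47. The 1 in C26-GM was Cdh1, at a mean of 9.56, which was also at 9.43 in the GM-CSF+IL-6 culture. Krt8, Krt18 and Krt19 were at 4.68, 4.38 and 4.37 in C26-GM, and at 4.57, 4.98 and 4.15 in healthy BALB/c spleen. In MCA203 these keratins were at 8.95, 7.50 and 5.16, so the similar sums rest on different genes. The part of fibroblasts and epithelial cells in the Gas6 and Stab1 differences was not tested. Endothelial markers, of interest because sinusoidal endothelium makes stabilin-1, were higher for 1 of 8 in 4T1, MCA203 and C26-GM and 3 of 8 in EL-4. Vwf was lower in C26-GM (-1.20) and Esam in MCA203 (-1.14). The endothelial sums were 8.73 to 9.24 in 4T1, 9.31 to 9.97 in EL-4, 9.15 to 9.42 in MCA203 and 8.86 to 9.44 in C26-GM. They overlapped the 9.14 to 9.33 of healthy BALB/c and the 9.30 to 9.62 of healthy C57BL/6 spleen. The part of endothelial cells in the Stab1 differences was not tested.

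Marrow and its cultures formed the second design. Fresh marrow differed from healthy BALB/c spleen in 4 of the 6 genes, against 13.3% of all genes, and was lower in each: Mertk at -2.95 (7.73-fold lower, adjusted p = 8.44e-12), Axl at -2.74 (6.69-fold, 1.80e-08), Adgre1 at -2.56 (5.90-fold, 1.45e-10) and Cd68 at -2.15 (4.44-fold, 3.80e-08). Gas6 (0.46, adjusted p = 0.194) and Stab1 (0.36, 0.387) did not pass. Neutrophil granule and other neutrophil markers were higher in marrow for 8 of 11, with a sum of 17.06 to 17.09 against 15.81 to 15.88. Of 10 macrophage markers, 6 were lower. All listed red pulp macrophage markers were lower, with a sum of 12.02 to 12.61 against 14.39 to 14.44. The dendritic cell sum was 8.34 to 8.64 against 12.15 to 12.51, and the B cell sum 9.15 to 9.52 against 12.14 to 12.38. The eosinophil sum was 11.39 to 12.05 against 10.28 to 10.92. Fibroblast sums overlapped, with Col1a2 at 4.14 and Postn at -4.18. The part of these cells in the differences was not tested.

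In 4 days of culture Adgre1 rose and Mertk and Gas6 fell with either cytokine pair. Of 8 dendritic cell markers, 4 were higher than in fresh marrow with IL-6 and 2 with G-CSF, led by Itgax (4.13 and 3.0 higher) and Ccr7 (3.29 and 3.91), and their sum went from 8.34 to 8.64 in fresh marrow to 10.83 to 11.29 and 9.94 to 10.61. Neutrophil markers were lower for 6 of 11 and 4 of 11. The fibroblast sum was 11.64 to 12.16 in fresh marrow, 10.67 to 10.95 with IL-6 and 9.03 to 9.49 with G-CSF. Col1a2 was at -2.84 and -3.23, and no fibroblast marker rose. The macrophage sum was 14.90 to 15.09 in fresh marrow, 15.17 to 15.23 with IL-6 and 15.25 to 15.37 with G-CSF. Within that list Apoe was at -5.91 and -5.46, and Fcgr1 at 1.56 and 1.75. The part of these cells in the differences was not tested. With GM-CSF+IL-6, 4 of the 6 genes were called against 14.1% of all genes, and with GM-CSF+G-CSF 5 of 6 against 13.9%. Adgre1 rose by 1.89 with IL-6 (3.70-fold, adjusted p = 4.68e-08) and 1.73 with G-CSF (3.32-fold, 1.94e-07). Mertk fell by 1.59 (3.01-fold, adjusted p = 5.65e-07) and 1.79 (3.45-fold, 8.55e-08), and Gas6 fell by 2.64 (6.24-fold, 9.56e-09) and 2.34 (5.08-fold, 7.15e-08). Mertk and its ligand thus moved opposite to Adgre1. Both comparisons share the fresh marrow arrays. On the low second probe set of Gas6 the differences were 0.53 and 0.47.

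The other 3 genes were each called with 1 cytokine pair. Axl rose with IL-6 by 1.04 (2.06-fold, adjusted p = 0.00551), which was 0.75 on the narrow arrays, 1.62 on the wide one and 0.85 without fresh replicate 2; with G-CSF it differed by 0.36 (0.306). Stab1 rose with G-CSF by 1.13 (2.19-fold, adjusted p = 0.00228), 0.96 on the narrow arrays, 1.47 on the wide one and 0.99 without fresh replicate 2, and with IL-6 it differed by 0.13 (0.733). Cd68 rose with G-CSF by 1.51 (2.85-fold, adjusted p = 1.23e-05), 1.37 on narrow and 1.78 on wide arrays. With IL-6 its difference was 0.49 (0.0967), at 0.11 on narrow and 1.24 on wide arrays. Each wide value rests on 1 culture array. Fresh marrow arrays had SDs of 2.16 to 2.21, above those of the narrow arrays and under those of the wide ones, so both kinds of value set arrays of unlike spread against each other. For Adgre1 the narrow and wide values were 1.87 and 1.93 with IL-6 and 1.65 and 1.89 with G-CSF, for Mertk -1.71 and -1.34, and -2.00 and -1.37, and for Gas6 -2.46 and -3.00, and -2.31 and -2.41.

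Between the cultures 1 of the 6 genes was called (all genes 0.654%). Cd68 was lower with IL-6 than with G-CSF, at -1.02 (2.03-fold, adjusted p = 0.0209). It stood at -1.27 (adjusted p = 6.94e-04) within the narrow arrays and at -1.02 (7.90e-04) with the array set as a term. The wide arrays are 1 of each culture and differed by -0.54, a value with no replicates of its own. It was not called without replicate 1 or 2 of the IL-6 cultures (-0.79 and -0.88) or without replicate 2 or 3 of the G-CSF cultures (-0.89 and -1.05). Stab1 was at -1.0 (adjusted p = 0.0808), and at -1.0 (0.0158) with the array set as a term. The remaining 95% intervals were -0.26 to 0.57 for Adgre1, -0.21 to 0.61 for Mertk, 0.09 to 1.26 for Axl (adjusted p = 0.459) and -0.82 to 0.23 for Gas6. Red pulp macrophage markers were lower than in fresh marrow for 7 of 7 in either culture (sums 9.08 to 9.87 and 9.29 to 9.96, against 12.02 to 12.61), and their part in the Mertk difference was not tested.

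**Figure D3:**
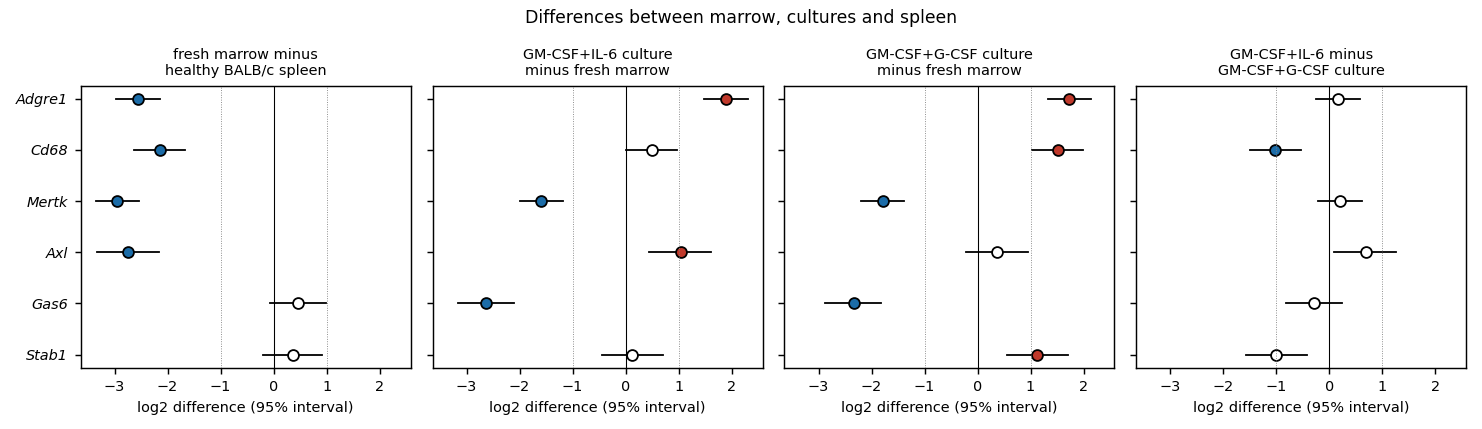
Log2 difference of each gene (rows) with its 95% interval between fresh marrow and healthy BALB/c spleen, each culture and fresh marrow, and the 2 cultures (panels); filled points passed adjusted p below 0.05 and 2-fold, open points did not, and dotted lines mark 2-fold. Adgre1 lies left of 0 in fresh marrow and right of 0 in both cultures, and Mertk lies left of 0 in all 3 of these panels.

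The relatives of the 6 genes by role did not move as a block. Pros1, the other TAM ligand, rose in the C26-GM spleen (1.12, adjusted p = 0.0498) and in EL-4 (1.04, 0.0494), and fell in the C26-GM infiltrate against the C26-GM spleen (-2.06, 3.47e-04) and in both cultures (-1.16 and -1.34). Tyro3, the third TAM receptor, had group means between 4.33 and 5.19 and was called in no comparison. Mfge8, which bridges phosphatidylserine to integrins, rose in 4T1 (1.63, adjusted p = 9.50e-05) and EL-4 (2.33, 7.65e-07), and in the cultures by 3.61 with IL-6 (4.09e-10) and 2.65 with G-CSF (9.05e-08), where Gas6 fell. Timd4, encoding the phosphatidylserine receptor TIM-4, fell in the C26-GM spleen (-4.08, adjusted p = 1.48e-11) and in all 4 infiltrates (-4.27 in C26-GM, -2.72 in 4T1, -1.30 in EL-4 and -3.45 in MCA203). Stab2, the paralogue of Stab1, fell by 4.99 in C26-GM, 4.94 in 4T1, 3.54 in EL-4 and 4.61 in MCA203, where Stab1 rose. It fell as well where Stab1 was not called, by 2.28 in the C26-GM spleen, 2.36 in fresh marrow and 2.48 with IL-6, and between 4T1 and C26-GM it differed by 0.04 while Stab1 differed by 2.15.

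Among the EGF-TM7 relatives of F4/80, Adgre4 fell in all 4 infiltrates (-7.00 in C26-GM, -5.32 in 4T1, -2.81 in EL-4 and -3.76 in MCA203) and in the C26-GM spleen (-1.89, adjusted p = 6.34e-05). In EL-4 and MCA203 the difference of Adgre1 was 0.21 and 0.50. Adgre5, which encodes CD97, fell in 4T1 (-2.30), EL-4 (-1.43) and MCA203 (-1.67) and in both cultures (-2.12 and -1.92), where Adgre1 rose. With the C57BL/6 minus BALB/c infiltrate difference, Adgre4 was at 2.88 (adjusted p = 4.78e-06), the same direction as Adgre1.

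Wider efferocytosis lists held 69 genes for bridging proteins, receptors, uptake machinery, digestion and lipid efflux, and find-me or do-not-eat-me signals, of which 67 were measured; Nr1h2 and Ucp2 were not. In the infiltrates 6 rose and 16 fell in C26-GM (32.8% called), 9 rose and 15 fell in 4T1 (35.8%), 14 rose and 6 fell in EL-4 (29.9%), and 11 rose and 11 fell in MCA203 (32.8%), where 11.4%, 12.3%, 10.8% and 10.4% of all genes were called. The medians of the list, -0.27, -0.04, 0.24 and 0.01, stood beside medians of all genes of 0.11, -0.01, 0.02 and 0.14. Thbs1, encoding thrombospondin-1, was among the 3 largest rises in each: 5.38 in C26-GM, 3.65 in 4T1, 3.71 in EL-4 and 4.05 in MCA203. Msr1, encoding scavenger receptor A, rose by 2.74, 3.77, 2.78 and 3.41 in the same order, and Trem2, a lipid-sensing receptor, by 1.75, 3.66, 2.44 and 3.23. Receptors that fell included Cx3cr1 (-4.31 in C26-GM and -3.13 in EL-4; 0.91 in 4T1 and 0.92 in MCA203, under 2-fold) and Marco (-2.79 in C26-GM, -2.95 in 4T1 and -3.69 in MCA203; -0.51 in EL-4, not called). Of 13 genes of the uptake machinery, none was called in C26-GM or EL-4, 1 rose and 3 fell in 4T1, and 1 rose in MCA203.

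In the C26-GM spleen 4 rose and 12 fell (23.9%, all genes 6.14%), and between the C26-GM infiltrate and spleen 8 rose and 15 fell (34.3%, all genes 6.16%). The 4T1 infiltrate exceeded C26-GM in 13 and was lower in 8 (31.3%, all genes 12.9%), with the complement genes C1qb (4.02), C1qa (3.66) and C1qc (3.38) and the fractalkine receptor Cx3cr1 (5.23) in front; the C1q genes are also macrophage markers here. EL-4 exceeded MCA203 in 12 and was lower in 4 (23.9%, all genes 5.28%), led by Marco (3.17), and Cx3cr1 was at -4.06. Fresh marrow had 4 higher and 26 lower than healthy spleen (44.8%, all genes 13.3%; median -0.59 against 0.09 over all genes), among the lower ones Havcr2 (-4.77) and Tgm2 (-3.26). In culture 9 rose and 14 fell with IL-6 (34.3%, all genes 14.1%) and 12 rose and 14 fell with G-CSF (38.8%, all genes 13.9%). Cd36, a scavenger receptor for oxidised lipids, rose by 3.66 and 3.04 there, and C1qb fell by 5.07 and 5.75. The cultures differed from each other in 1 gene (1.49%, all genes 0.654%), Lrp1 at -1.12, and the healthy strains in 1 (1.49%, near the 1.40% of all genes), Marco at 1.29. The C57BL/6 minus BALB/c infiltrate difference was higher for 11 and lower for 1 (17.9%, all genes 4.93%).

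**Figure D4:**
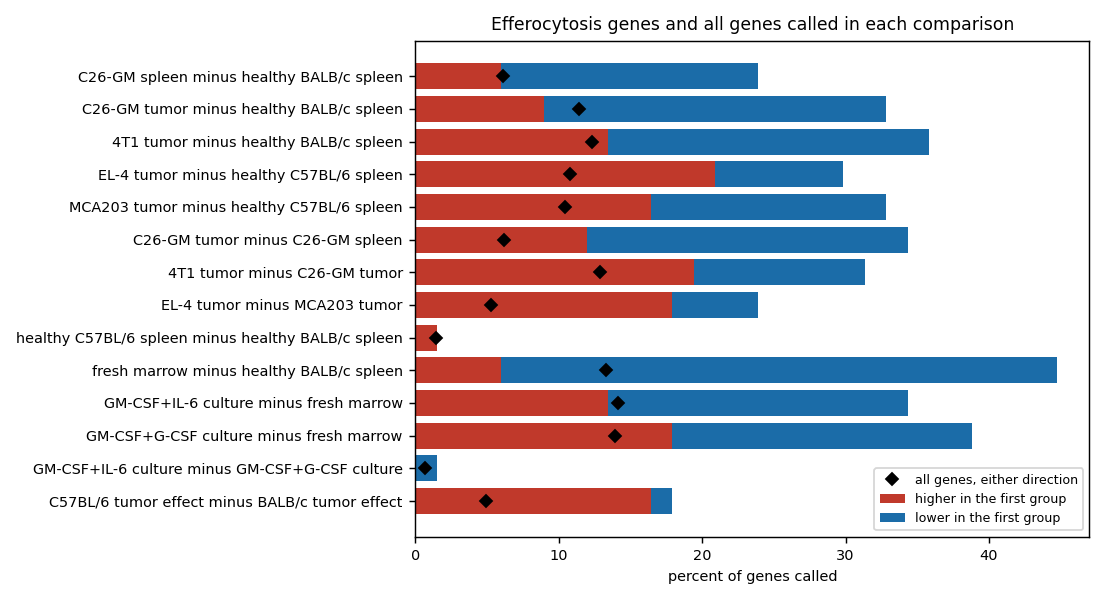
Percent of the 67 measured efferocytosis genes (bars, red for higher and blue for lower in the first-named group) and of all 18194 genes (diamonds, either direction) called in each of 14 comparisons. The bars reach 44.8% for fresh marrow against spleen and 1.49% between the cultures and between the healthy strains.

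Across the 10 group means, Adgre1 was most like Axl among the 6 genes (Pearson r = 0.87), Gas6 and Stab1 had r = 0.62, and Mertk and Stab1 had r = 0.06. The genes share the same arrays, so these values are descriptions. Over 7893 genes searched, the highest r was reached for Adgre1 by Blvrb (0.95), Huwe1 (0.94) and Pkp4 (0.93), and for Cd68 by Snx16 (0.96), Mr1 (0.94) and Lpxn (0.94). Aasdh (0.98), Nemf (0.97) and Map3k1 (0.97) were most like Mertk, and Mdh1 (0.98), Hdac9 (0.98) and Invs (0.96) most like Axl. For Gas6 they were Abcd3 (0.94), Gng11 (0.94) and Klhl22 (0.93). Stab1 ran closest to Ppfibp1 (0.97) and to the chemokine genes Ccl12 (0.98) and Ccl8 (0.96).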

How the data were processed

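CD11b+ cells were hybridised to Affymetrix MOE430 2.0 arrays, 30 in all. The deposited log2 values come from RMA, per the submitters' processing notes (version not given), which corrects background, normalises between arrays by quantiles and summarises probes; quantile normalisation removes shifts that most genes share. Intensities per array were not used here. Of 45101 probe sets, 34958 had 1 symbol in the platform annotation, 932 several and 9211 none; 34897 of the first had a symbol also found in RefSeq's gene table. Each of 18194 genes was represented by its 1-symbol probe set with the highest mean. Groups follow the labels, 3 arrays each. All 10 groups entered 1 limma fit (limma 3.58.1, R 4.3.3; 20 residual and 5.92 prior degrees of freedom), with Benjamini-Hochberg adjustment over all genes in each of 14 comparisons, and the code was tested on simulated data. A gene was called at adjusted p below 0.05 and 2-fold, and "rose" or "fell" is written of called genes. Related genes are named where they were among the 4 largest called rises or falls of their list in a comparison, or as the closest relatives by role (Tyro3, Pros1, Mfge8, Timd4), besides Adgre4 and Adgre5, the listed relatives of F4/80; Stab2, Marco, Cx3cr1, Msr1 and Trem2 are also given in comparisons where they were not among those 4. Itgax, Ccr7, Postn, Fn1, Col1a2, Vwf, Esam, Rnase2a, Prg2, Ccr3, Apoe, Fcgr1, Csf1r, Lgals3, Cdh1 and the keratins were named after their values were seen. Genes most alike were the 3 with the highest correlation of group means. Members and lists were chosen with earlier results of these data known, and the lists are therefore described by counts. Settings for normalisation, probe sets, thresholds, variance, pairing and left-out arrays were varied; 4 further settings, on the culture array sets and the C26-GM replicate 3 arrays, were chosen after seeing the data. Promoters come from RefSeq's table. The number of arrays limits the precision. Figures were drawn with matplotlib 3.10.9 in Python 3.11.15.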

Additional observations from a re-analysis of the deposited data

Results flagged for a closer look

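Several effects differed between tumors or cultures by a test of the difference itself. The mean signed difference from healthy spleen was higher in C57BL/6 than in BALB/c infiltrates by 2.06 for Adgre1, 1.51 for Axl and 2.52 for Gas6 (log2). For Adgre1 every C57BL/6 infiltrate array was above every BALB/c one. For Axl the 4T1 arrays overlapped those of MCA203 and lay above those of EL-4, and for Gas6 they lay above those of MCA203, so for these genes C26-GM alone was below both C57BL/6 infiltrates. The 4T1 infiltrate exceeded the C26-GM infiltrate by 1.88 for Adgre1, 2.50 for Axl, 3.93 for Gas6 and 2.15 for Stab1, on 3 of 3 arrays each. Gas6 was 1.98 higher in EL-4 than in MCA203, on 3 of 3 arrays. Cd68 was at -1.02 in GM-CSF+IL-6 relative to GM-CSF+G-CSF cultures, with all 3 arrays below, and the value was -1.27 on narrow culture arrays and -0.54 between the 2 wide ones, 1 of each culture.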

How the results depend on the processing

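With the second highest probe set, where Axl and Gas6 are near the lower end of the array, the count of called members became 1 in the C26-GM spleen, 3 in the C26-GM infiltrate, 1 in EL-4, 2 between C26-GM infiltrate and spleen, 2 between 4T1 and C26-GM, 0 between EL-4 and MCA203, 0 between strains, 2 with IL-6 and 1 for the C57BL/6 minus BALB/c difference, and 1 call fewer was made in 4T1, MCA203, fresh marrow and with G-CSF. Gas6 then turned to 0.06, 0.15, 0.09 and -0.07 in the C26-GM spleen, the C26-GM infiltrate, infiltrate against spleen, and 4T1 against C26-GM, to 0.53 and 0.47 in the cultures and to 0.07 between them, and Axl to 0.08 between strains and -0.05 between cultures. The mean of all probe sets gave 1 (C26-GM spleen), 2 (C26-GM infiltrate against spleen) and 0 (strains); calls also lost under it were Gas6 in the C26-GM infiltrate (-0.78), in MCA203 (0.96) and with G-CSF (-0.94), and Axl with IL-6 (0.73) and in the C57BL/6 minus BALB/c difference (0.81). Without a minimum fold the counts were 4 (C26-GM spleen), 4 (EL-4) and 2 (EL-4 against MCA203). Between the cultures the count was 2 under housekeeping centring, array weights, the array set as a term and narrow arrays, and 0 with only the compared groups, adjusted p below 0.01 or wide arrays. Without replicate 3 of both C26-GM groups it was 2 between C26-GM infiltrate and spleen, and Cd68 turned to 0.03 against spleen and -0.02 against 4T1. Stab1 with IL-6, at 0.13, turned to -0.17 (quantile again), -0.32 (array weights) and -0.15 (narrow arrays). The cause of these changes was not tested.

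Leaving out 1 array, the counts were 0 to 2 between the cultures, 3 to 4 for C26-GM infiltrate against spleen and for IL-6, 4 to 5 for G-CSF, and as reported elsewhere; differences that changed sign ran, for Cd68, from -0.03 to 0.07 in 4T1, -0.35 to 0.03 in the C26-GM infiltrate and -0.02 to 0.37 between these, for Stab1 with IL-6 -0.15 to 0.34, and between strains -0.13 to 0.01 for Adgre1, -0.18 to 0.01 for Mertk and -0.21 to 0.13 for Stab1. Over all genes, the 119 called between cultures became 226 without a minimum fold, 65 at adjusted p below 0.01, 37 on wide arrays and 2 with only the compared groups. Array weights gave 4287 with IL-6 and 3934 with G-CSF, and narrow arrays 4290 and 4080, against 2560 and 2520. Housekeeping centring, with 8 of 10 genes measured, moved the median of all genes by over 0.1 in 7 comparisons, from -0.24 (EL-4 minus MCA203) to 0.21 (C26-GM infiltrate minus spleen), and turned no member's direction. It lost the calls of Gas6 in the C26-GM infiltrate against spleen (-0.97) and of Axl with IL-6 (0.92). Array weights lost those of Axl with IL-6 (0.74) and Stab1 with G-CSF (0.87). Between the cultures, quantile normalisation again lost Cd68 (-0.90) and gained Stab1 (-1.35). Same-numbered replicates did not all deviate together, as in no comparison was every correlation of their deviations above 0.1. For replicates 1 to 3 the correlations were 0.37, 0.06 and 0.47 between the C26-GM infiltrate and spleen. Between the cultures they were 0.79, -0.85 and -0.80. This check cannot decide whether some numbers pair samples. With the replicate block the count of called members was 5 in the C26-GM infiltrate and unchanged in the other comparisons. Over all settings that kept every array or left out a set of arrays, 1030 of 1092 member differences kept direction and side of the threshold. Part of this total could hardly change. For the 4 members with 1 probe set the choice of probe set changes no value, and settings on thresholds reuse the same differences. The share is therefore no measure of how firm the Axl and Gas6 results are.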
